A study of Homo sapiens with 10 samples.

Results

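The proteins that read N6-methyladenosine (m6A) on RNA are themselves encoded by mRNAs that can carry the mark, and this account follows the m6A peaks in the genes of 8 such readers, YTHDF1, YTHDF2, YTHDF3, YTHDC1, YTHDC2, IGF2BP1, IGF2BP2 and IGF2BP3. A peak was counted for a gene when its summit, the position of strongest signal, lay within the span of that gene on hg19. The 8 spans add up to 627 kb. They held 32 of the 38106 peaks in all 5 deposited lists, and 6 of the 8 genes had a peak in at least 1 list.

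The study profiled m6A in 5 established human colon cancer cell lines by MeRIP-seq, in which an antibody enriches methylated fragments of total RNA and the enriched RNA is sequenced beside the unenriched input. HCT116, HT29 and HCT15 are labelled as colorectum, and COLO320DM and COLO205 as colon. All lines were grown in the same medium, with serum and antibiotics, and the labels name no treatment. Each line had 1 m6A immunoprecipitation (IP) and 1 input and no replicates, so each difference between lines given here compares single libraries and carries no test.

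The set joins a pair of protein families. The YTH proteins hold the methylated adenosine in a pocket of the YTH domain. YTHDF1, YTHDF2 and YTHDF3 act in the cytoplasm on the translation and decay of m6A mRNAs, YTHDC1 acts in the nucleus on splicing and export, and YTHDC2 is an RNA helicase best known for its role in germ cells. The IGF2BP proteins bind RNA through KH domains and are known for stabilising their target mRNAs, and they are often abundant in fetal tissue and in tumours.

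The YTHDF genes held most of the peaks. YTHDF1, YTHDF2 and YTHDF3 together had 19 peaks in 101 kb, against 4 peaks in 122 kb for the YTHDC genes and 9 peaks in 404 kb for the IGF2BP genes. With overlapping peaks counted once, these were 7, 2 and 6 places. In the lists other than HCT15, the reader spans held 9.57 to 15.9 peaks per Mb. The whole lists, which include the stretches between genes, held 2.79 to 3.18 per Mb. No list had a peak in YTHDC2 or in IGF2BP1. The spans include introns, and no expression level was analysed here, so an unmethylated RNA and a scarce one cannot be told apart where a gene has no peak.

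By line, HCT116 had 10 reader gene peaks (exact Poisson 95% interval 4.80 to 18.4, counting error only), HT29 had 8 (3.45 to 15.8), HCT15 had 0 (upper limit 3.69), COLO320DM had 6 (2.20 to 13.1) and COLO205 had 8 (3.45 to 15.8). The intervals of the 4 long lists overlap. Each of these 4 lists had peaks in 5 reader genes, and the genes they missed differed. HCT116 had none in YTHDF3, HT29 none in YTHDC1, COLO320DM none in IGF2BP2 and COLO205 none in IGF2BP3, beside YTHDC2 and IGF2BP1 in each case.

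**Figure D1:**
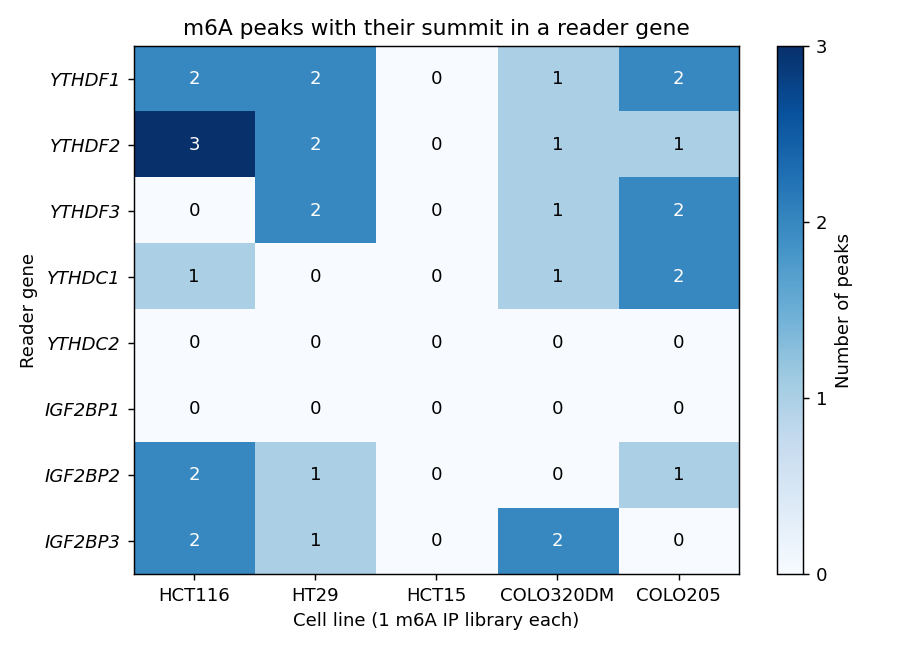
Number of m6A peaks whose summit lay in each reader gene (rows) in the list of each cell line (columns, 1 IP library each). YTHDF1 and YTHDF2 had peaks in the 4 long lists, YTHDC2 and IGF2BP1 had 0 in all 5, and HCT15 had 0 in every gene.

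The HCT15 list was short, and at its length 0 reader gene peaks does not tell whether its share differed from that of the other lists. It held 905 peaks on chromosomes 1 to 22, X and Y, against 8638 to 9835 in the other lists. Reader genes took 0.109% of the peaks in HCT116, 0.0695% in COLO320DM, 0.0906% in HT29 and 0.0813% in COLO205, and the 0 of HCT15 has an exact Clopper-Pearson upper limit of 0.407%. At the pooled share of the 4 long lists, 0.0876%, a list of 905 peaks would hold 0.793 reader gene peaks. The lowest −log10 p in the HCT15 list was 5.59, and 29 of the 32 reader gene peaks of the other lists were at or above it. So were most peaks of whole lists. A −log10 p of 5.52 was at the 9.53rd percentile of the HCT116 list, and 6.02 was at the 10.2nd percentile of the COLO205 list.

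Overlapping peaks were merged into 15 reader gene regions. Of these, 9 were held by 2 or more lists (60.0%, 95% interval 32.3% to 83.7%), beside 36% of all 22315 regions of the series. In 3 or more lists there were 5 of the 15, beside 18.1% of all regions, and in the 4 long lists 2, beside 6.87%. The intervals of the last 2 shares were 11.8% to 61.6% and 1.66% to 40.5%, and each of the 3 intervals includes the value for all regions.

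Sharing was also counted within each list. A partner in another list was found for 8 of 10 HCT116 reader gene peaks, beside 61.6% of all HCT116 peaks, for 6 of 8 in HT29, beside 63.7%, for 5 of 6 in COLO320DM, beside 52.9%, and for 7 of 8 in COLO205, beside 65.1%. The lowest bound of these 4 shares was 34.9%, in HT29. Between pairs of lists, HCT116 and COLO205 held 5 reader regions in common, 55.6% of those of HCT116 and 62.5% of those of COLO205, beside 41.5% and 39.4% over all regions of these lists. HCT116 and HT29 also held 5 in common, while HT29 and COLO320DM shared the fewest among the long lists, 3, which were 37.5% of the HT29 regions and 50% of the COLO320DM regions, beside 26.9% and 27.1% over all regions, also the lowest shares among the long lists.

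YTHDF1, which is known for promoting translation of its targets, carried 2 neighbouring regions in the middle of its span. The gene runs on the minus strand. The region at chr20:61834245-61834675 was in the 4 long lists, with folds of 6.60 in HCT116, 6.17 in COLO320DM, 5.23 in HT29 and 5.56 in COLO205. The fold is the authors' ratio of the signal at the summit to its local background. The 4 folds thus lay close together, with a ratio of highest to lowest of 1.26, where the median ratio over the 1532 regions in the 4 long lists was 2.01.

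The summits of that YTHDF1 region nearly coincided. The positions were 61834537 in HCT116, 61834538 in COLO320DM, 61834542 in HT29 and 61834541 in COLO205, a range of 5 nt. The median range over regions in the 4 long lists was 37 nt, and 8.62% of those regions had a range of 5 nt or less. The IP reads over the summit, recovered from the deposited fold and p-value, numbered 30 in HCT116, 27 in COLO320DM, 26 in HT29 and 23 in COLO205.

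The second YTHDF1 region, chr20:61833699-61833909, lay on the 3′ side of the first. It was held by HCT116 with a fold of 7.03 and 20 IP reads, by HT29 with a fold of 5.08 and 18 reads and by COLO205 with a fold of 6.65 and 13 reads. COLO320DM had no peak there. Its summits spread over 51 nt.

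YTHDF2, which recruits the deadenylation machinery to m6A mRNAs, had the strongest reader gene peak of the series. The region at chr1:29070018-29070445 was in the 4 long lists, with folds of 5.50 in HCT116, 5.18 in COLO320DM, 7.75 in HT29 and 22.8 in COLO205. COLO205 stood apart from the other 3 lines, which lay between 5.18 and 7.75. Its peak ranked 24th by fold and 41st by −log10 p among the 9835 peaks of the COLO205 list. The ratio of highest to lowest fold was 4.40, and 2.15% of the regions in the 4 long lists had a ratio as high.

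The unscaled IP reads over this YTHDF2 summit lay close together. They numbered 35 in HCT116 (95% interval 24.4 to 48.7), 31 in COLO320DM, 28 in HT29 and 35 in COLO205 (24.4 to 48.7). The local background was at the level of 9 input fragments in HCT116, 8 in COLO320DM, 4 in HT29 and 1.05 in COLO205. The high COLO205 fold thus stood over the lowest background. A fraction such as 1.05 is a level and not a count at the summit, so the number of fragments behind it is not known here. The IP reads and these levels are not scaled for depth, and the scaled IP signal, given further on, was lowest in COLO205.

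HCT116 had a further, weaker peak at the 5′ side of this region, at chr1:29070018-29070126, with a fold of 3.62 and 16 reads. The single COLO205 peak, 421 nt wide, overlapped both HCT116 peaks. A separate YTHDF2 region lay at chr1:29095570-29095677, with summits 1368 to 1369 nt from the 3′ edge of the span. It was in HCT116 with a fold of 6.57 and 8 reads and in HT29 with a fold of 5.81 and 6 reads, and their summits differed by 1 nt.

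YTHDF3, which acts with the other YTHDF proteins on translation and decay, had no peak in HCT116. Its direction was read from the divergent transcript YTHDF3-DT, which RefSeq places at its lower edge. A region at chr8:64099063-64099225 was shared by HT29, with a fold of 5.46 and 14 reads, and COLO205, with a fold of 7.70 and 15 reads, with summits 1 nt apart.

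Toward the 3′ edge of YTHDF3 the lists placed their peaks differently. COLO320DM, with a fold of 4.77 and 4 reads, and COLO205, with a fold of 7.72 and 8 reads, had a peak at chr8:64122207-64122308 with the same summit. HT29 had its peak beside this, at chr8:64122378-64122455, with a fold of 6.06 and 6 reads. These 3 peaks had backgrounds of 0.073, 0.30 and 0.225 input fragments, in the order COLO320DM, COLO205 and HT29. Each thus rests on few reads over a very low background level.

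YTHDC1, the nuclear reader, had a region with high folds in 3 lines and a second, weak peak in 1. The gene runs on the minus strand. At chr4:69202819-69203060 the folds were 8.96 in HCT116, 10.9 in COLO320DM and 13.6 in COLO205. These lay at the 90.7th, 96.0th and 97.0th percentile of their lists, the highest of any reader gene region present in 3 or more lists except for the COLO205 peak in YTHDF2. HT29 had no YTHDC1 peak.

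The summits in HCT116 and COLO320DM stood 2 nt apart, at 69203003 and 69203001, and that of COLO205 at 69202877. The line with the highest fold had the fewest IP reads. COLO205 had 16 reads over a background of 0.45 input fragments, HCT116 had 19 over 2 fragments and COLO320DM had 31 over 3 fragments. The second YTHDC1 peak was in COLO205, at chr4:69179830-69179953, with a fold of 3.43, 10 reads and a −log10 p of 4.69, near the lowest of that list, 4.48.

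IGF2BP2, a reader known for binding mRNAs of metabolism and growth, had its peaks at the edges of its 182 kb span. The gene runs on the minus strand, and RefSeq lists an antisense gene, IGF2BP2-AS1, within it. The peaks have no strand, so reads of sense and antisense RNA cannot be told apart. At the 3′ end, the region chr3:185363136-185363311 had folds of 3.10 in HCT116 and 4.68 in COLO205, from 25 and 6 reads. HT29 had a separate peak at chr3:185361544-185361663, 592 nt from the 3′ edge, with a fold of 6.40 and 10 reads.

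At the 5′ end of IGF2BP2, HCT116 had a peak at chr3:185542736-185542835 with a fold of 6.76 and 17 reads. Its summit was 202 nt from the 5′ edge of the span. No other list had a peak there. HCT116 also had the peak nearest the 5′ edge of IGF2BP3, at chr7:23509602-23509693, 1382 nt inside the span, with a fold of 3.20 and 16 reads. These were the only reader gene peaks in the first 10 kb of an IGF2BP span in any list.

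IGF2BP3, known as an oncofetal RNA-binding protein, had 1 shared region, far from both edges of its 162 kb span. The gene runs on the minus strand, and RefSeq places MALSU1, SNORD65C and RNU7-143P over parts of it, so a peak in the span is not assigned to IGF2BP3 RNA with certainty. At chr7:23454410-23454640 the folds were 5.96 in HCT116, 9.49 in HT29 and 5.02 in COLO320DM. HT29 was highest, with the fewest reads and the lowest background, 15 reads over 1 input fragment. HCT116 had 27 reads over 6 fragments and COLO320DM had 17 over 4. COLO205 had no IGF2BP3 peak. A last peak, in COLO320DM at chr7:23400317-23400389, had 2 reads and a −log10 p of 4.77, and was the weakest reader gene peak by reads.

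**Figure D2:**
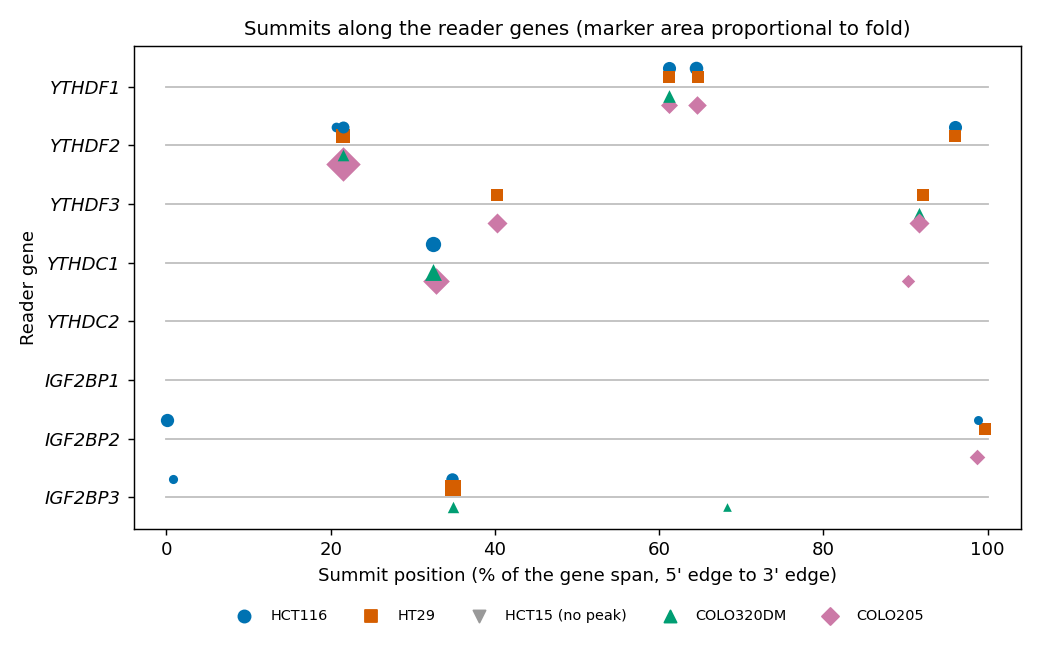
Position of each peak summit along the reader genes, in percent of the gene span from the 5′ edge (0) to the 3′ edge (100), by cell line, with marker area proportional to the authors' fold. The YTHDF1 summits cluster near 61 and 65%, the IGF2BP2 summits sit at both edges, and the largest marker is the COLO205 peak in YTHDF2 (fold 22.8).

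Counted by peak, summits were spread over the spans. Of the 32 peaks, 10 had their summit before 33.3% of the span, 12 between 33.3% and 66.7% and 10 after 66.7%, and the median was at 61.2%. This counts a shared region more than once, such as the YTHDF2 region with 5 peaks. The region means nearest the 3′ edge were 90.3% in YTHDC1, 91.7% and 92.1% in YTHDF3, 96.0% in YTHDF2, and 98.8% and 99.7% in IGF2BP2. Those nearest the 5′ edge were 0.111% in IGF2BP2 and 0.853% in IGF2BP3. Within 5 kb of the 3′ edge lay 9 peaks, in YTHDF2, YTHDF3, YTHDC1 and IGF2BP2. These 5 kb windows are a small part of the spans, so summits lay more densely there than over the spans as a whole. The difference was not tested. Across transcriptomes m6A is known to be common near stop codons and in long exons. Exons and stop codons were not located here, because no hg19 annotation was used, so a position in the span is not a position in the mRNA.

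As a set, the reader gene peaks were somewhat above the middle of their lists. Their folds ran from 2.86 to 22.8 with a median of 6.01, beside a median of 5.49 over all peaks of the 4 long lists. A fold of at least 5 was reached by 25 of 32, beside 59.4% of all peaks in the 4 long lists, and a −log10 q of at least 5 by 24 of 32, beside 56.9%. They had a median of 16.5 IP reads, beside 10 over all peaks, and a median width of 149 nt, beside 121 nt. Of the 32 peaks, 19 were in the upper 50% of their list by fold.

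The levels differed between the lines. Over the reader genes the median was 19.5 IP reads in HCT116, 22 in COLO320DM, 14.5 in HT29 and 14 in COLO205, beside list medians of 11, 12, 8 and 9 in the same order. Their median fold was 6.27 in HCT116, 5.10 in COLO320DM, 5.94 in HT29 and 7.18 in COLO205, beside 5.11, 5.23, 5.67 and 5.70 over the lists. Reads were thus above the list median in each of the 4 lines and the fold in 3 of them, with COLO320DM below. The median background was also above that of the list in each of the 4 lines, at 3.69 against 0.647 expected reads in HCT116, 2.26 against 0.944 in COLO320DM, 1.23 against 0.165 in HT29 and 0.828 against 0.552 in COLO205.

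**Figure D3:**
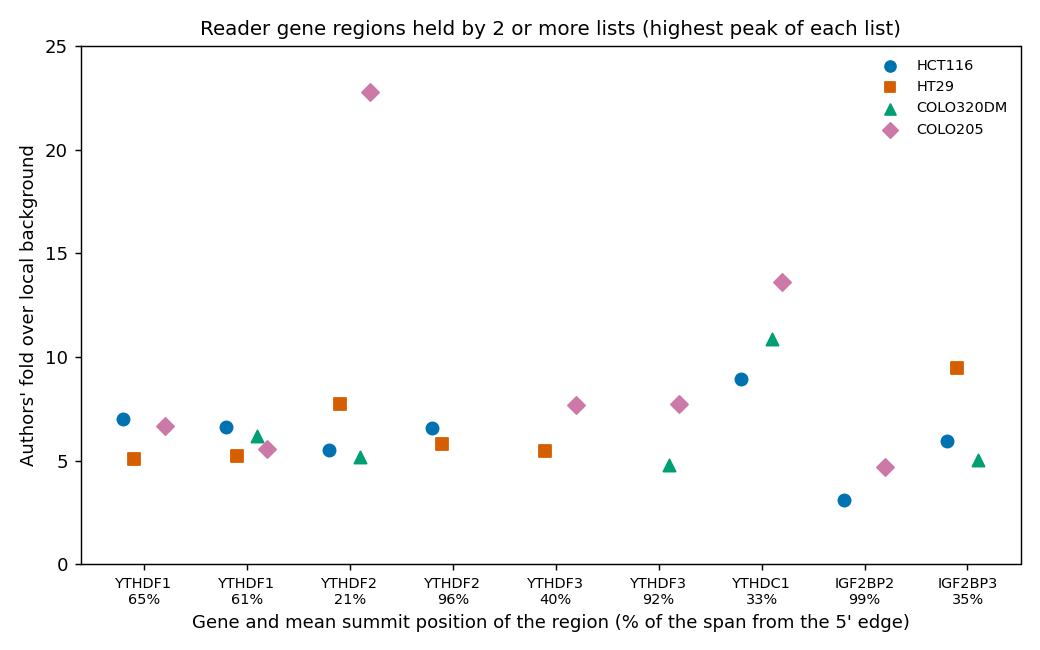
Authors' fold over local background (vertical axis, from 0) in the 9 reader gene regions held by 2 or more lists, with 1 point per cell line, labelled by gene and mean summit position in percent of the span. COLO205 reaches 22.8 in YTHDF2 and 13.6 in YTHDC1, while the 4 lines lie between 5.23 and 6.60 in the YTHDF1 region near 61%.

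The order of the lines by fold and by IP signal differed. Both quantities were set on a common scale by dividing them by the genome mean of the library, the lowest background of the list. In the YTHDF2 region of the 4 long lists the IP signal was 913 genome means in HCT116 (95% interval 636 to 1270), 778 in COLO320DM (529 to 1105), 474 in HT29 (315 to 685) and 422 in COLO205 (294 to 587). The background was 145, 130, 46.4 and 6.99 genome means in the same order. COLO205 thus had the highest fold, the lowest IP signal and the lowest background, and its IP interval overlapped those of HT29 and COLO320DM and not that of HCT116.

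In YTHDC1, too, COLO205 had the highest fold, the lowest IP signal and the lowest background. The IP signal was 496 genome means in HCT116 (298 to 774), 778 in COLO320DM (529 to 1105) and 193 in COLO205 (110 to 313), over backgrounds of 32.1, 48.7 and 2.99. In IGF2BP3 the line with the highest fold, HT29, had an IP signal of 254 (142 to 419), against 704 in HCT116 (464 to 1025) and 427 in COLO320DM (249 to 683). Its background was 11.6, against 96.4 and 65.0.

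In YTHDF1 the fold did not single out COLO205. In the region of the 4 long lists the IP signal was 783 genome means in HCT116 (528 to 1117), 678 in COLO320DM (447 to 986), 440 in HT29 (288 to 645) and 277 in COLO205 (176 to 416). The backgrounds were 96.4, 88.9, 70.5 and 39.9 in the same order. The lines ranked as in YTHDF2 by IP signal and by background, but the backgrounds lay closer together, and the folds stayed within 5.23 to 6.60.

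**Figure D4:**
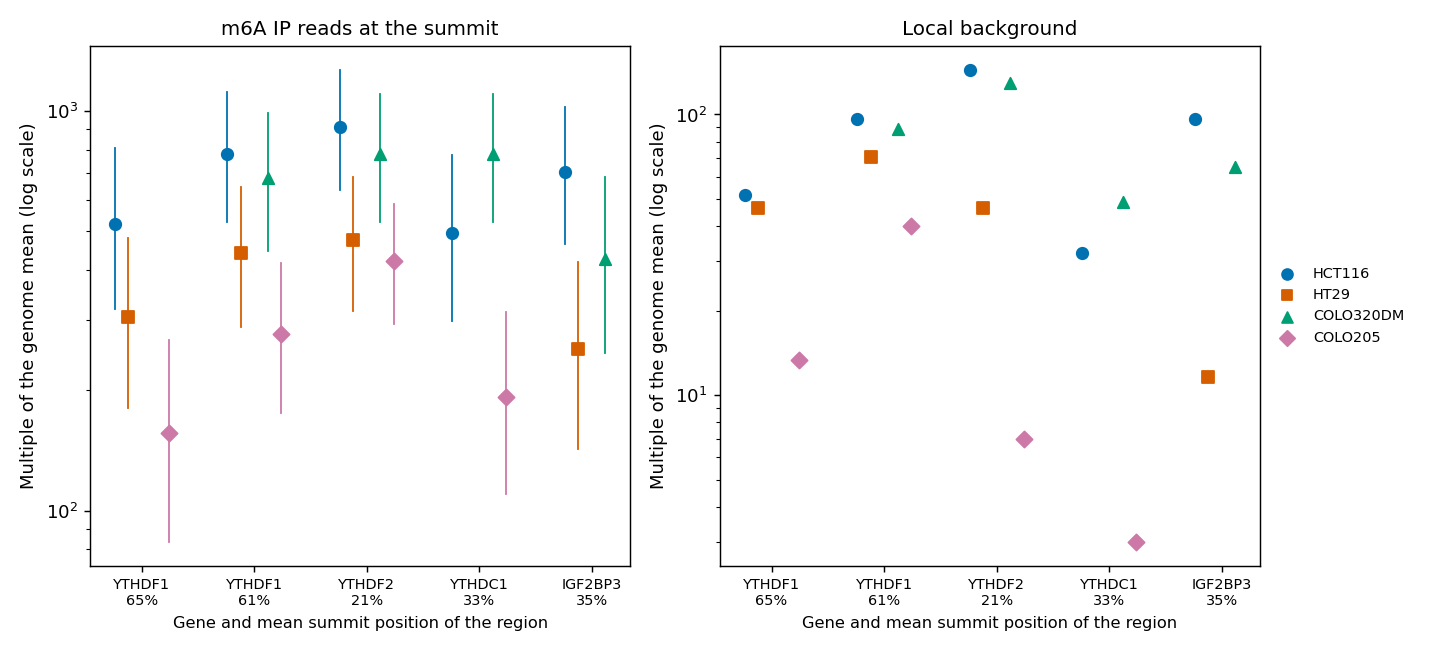
IP reads at the summit (left, with exact Poisson 95% intervals for counting error) and local background (right), both as multiples of the genome mean of the library on log axes, in the 5 reader gene regions held by 3 or more lists. COLO205 is the lowest point in both panels wherever it has a peak, and HT29 is lowest in IGF2BP3.

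The same orders were counted over all regions in the 4 long lists. COLO205 held 7 of the 9 reader regions in 2 or more lists and had the lowest IP signal in all 7. Over the 1532 regions in the 4 long lists it was lowest in 84.5%. HCT116, which also held 7 of the 9, had the highest IP signal in 6, beside 47%. COLO320DM, which held 5 of the 9, had the highest in 2, beside 48.9%. The highest fold was in COLO205 in 5 of 9, beside 48%, and it was in the line with the lowest background in 5 of 9, beside 52.2%. Several of the 9 regions were in 2 or 3 lists, where a line leads more easily than among 4.

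Among the 905 strongest peaks by −log10 p of each list, 4 of the 32 reader gene peaks remained, beside 9.91% of all peaks in the 4 long lists. They were YTHDF2 in HT29 (rank 809) and COLO205 (rank 41), and YTHDC1 in COLO320DM (rank 239) and COLO205 (rank 575). HCT116 had 0 of its 10 reader gene peaks among its 905 strongest, which are 9.83% of its list, and the best was the YTHDF1 peak at rank 1057.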

How the data were processed

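Per the submitters' processing notes the tools were cutadapt, FastQC, BWA and MACS2 and the build hg19; roles, versions and parameters are not given in the sources used here. The authors deposited 1 peak list per IP library, so nothing was pooled. Each peak has the authors' fold (a ratio to local background), a deposited −log10 p-value and −log10 q-value, a deposited score (−log10 q times 10) and positions, printed here counting from 1. Comparisons used chromosomes 1 to 22, X and Y.

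IP reads and background were recovered by assuming the Poisson model of MACS2, with a pseudocount of 1. A whole number of reads met the −log10 p within 0.001 for 100% of peaks in HCT116, HT29, COLO320DM and COLO205. In HCT15 this held for 5.08%, and its reads were not used. The level of 1 input fragment was the step on whose whole multiples 75.2% to 81.6% of backgrounds between 0.8 and 12 reads fell. The control was taken to be the input of the line. The genome mean was 0.0383 reads in HCT116, 0.0398 in COLO320DM, 0.0590 in HT29 and 0.0830 in COLO205. Recovery and merging (against bedtools 2.31.1) were tested on simulated data.

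Peaks overlapping by at least 1 nt were merged. Named peaks were to be the regions in 3 or more lists and the highest fold of each gene and list; the other peaks were added after their values were seen. Members, spans and lists were chosen with earlier results of these data known. Strand came from RefSeq (GRCh38.p14), which was used for no coordinates. Other reader genes, cell type markers, genes of similar pattern and motifs need hg19 gene positions or sequence and were not analysed here. Intervals are exact 95% intervals for counting error only. The work used scipy 1.17.1, pandas 2.3.3 and numpy 2.4.6 under Python 3.11.15, with figures from matplotlib 3.10.9.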

Additional observations from a re-analysis of the deposited data

How the results depend on the processing

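With the 905 strongest peaks of each list, the reader gene peaks numbered 0 in HCT116, 1 in COLO320DM, 1 in HT29 and 2 in COLO205, and 2 regions were held by 2 or more lists. The other alternatives kept each count within 1.5 times its value: peaks with a −log10 q of 5 or more, peaks with a fold of 4 or more, membership by overlap with the span and, for the regions, reciprocal overlap of 50%, summits within 100 nt and each list left out. Under these the shared regions numbered 6 to 9, and HCT15 stayed at 0. With a pseudocount of 0 in the fold no reader gene peak had a whole number of reads, so that alternative gave no value. No paired analysis was possible because each line had 1 IP library and the labels give no replicate numbers. Low backgrounds limit some folds more than others. The background ran from 0.073 input fragments, in COLO320DM at YTHDF3 and IGF2BP3, to 12 in HCT116 at IGF2BP2.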

Other observations

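Peaks just outside the spans lay near 2 of the 8 genes. Below IGF2BP2, 5.63 to 5.68 kb beyond its 3′ edge, HT29 had a peak with a fold of 7.16 and 8 reads, COLO320DM one with a fold of 6.54 and 14 reads and COLO205 one with a fold of 5.15 and 7 reads, at chr3:185355310-185355415 in HT29. COLO320DM had a peak 3.77 kb beyond the 5′ edge of IGF2BP3, with a fold of 5.48 and 5 reads. Leaving out the peaks inside each span, the nearest peak in any list was 21.2 kb from YTHDF2, 36.1 kb from YTHDF1 and 161 kb from YTHDF3. It was 163 kb from YTHDC1, 242 kb from IGF2BP1 and 486 kb from YTHDC2. The 2 genes without a peak inside their span were thus also the farthest from a peak outside it.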
